A study of Mus musculus with 4 samples.

Results

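The genes described here are 56 enzymes and chromatin remodelers that modify histones or DNA or move nucleosomes outside the Polycomb complexes, named in a list drawn up by function. All 56 were found by symbol among the 21828 genes with an FPKM (fragments per kilobase of transcript scaled to mapped fragments, a level corrected for transcript length). They comprised 12 histone demethylases, 9 histone methyltransferases, 10 histone deacetylases, 4 histone acetyltransferases, 3 DNA methyltransferases, 3 TET dioxygenases, 12 subunits of the BAF complex and 3 CHD proteins. The BAF and CHD members, 15 in all, remodel nucleosomes rather than modify histones or DNA themselves.

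Retinal cells of mice carrying a Hes1 promoter followed by a destabilized EGFP were sorted into EGFP-positive cells (pHes1_EPCs) and EGFP-negative cells (pHes1_ENCs) at postnatal day 1 (P1) and day 4 (P4). The labels give no treatment and FVB/N as the strain of all 4 libraries, an inbred strain known to carry the rd1 allele of the rod gene Pde6b. One library was sequenced for each fraction at each age, so no test between groups was possible and every difference below is a description of these libraries. Whether a library pooled several animals is not given in the sources used here. The fraction is set by the activity of a promoter, which is on in retinal progenitors as well as in Müller glia, and Hes1 itself was listed at an FPKM of 16.6 in P1 pHes1_ENCs, 105 in P1 pHes1_EPCs, 3.59 in P4 pHes1_ENCs and 93.5 in P4 pHes1_EPCs.

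Chromatin enzymes set, remove or read chemical marks on histone tails and on cytosines, and remodelers use ATP to shift nucleosomes so that DNA becomes more or less accessible. In the developing nervous system several of these families change members as a cell leaves the cell cycle. The best known case is the BAF complex, in which subunits of dividing progenitors are replaced by paralogs of postmitotic neurons. DNA methylation is copied to new strands during replication by Dnmt1, whereas TET enzymes oxidize methylcytosine and are prominent in neurons.

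The libraries differed strongly in their cell content. The summed FPKM of 20 S phase genes was 377 in P1 pHes1_ENCs, 1632 in P1 pHes1_EPCs, 183 in P4 pHes1_ENCs and 677 in P4 pHes1_EPCs. P1 pHes1_EPCs were called higher than pHes1_ENCs for all 20 of them, and P4 pHes1_EPCs for 18. All 20 genes of G2 and M phase were called higher at both ages, with sums of 363, 1269, 47.9 and 573. The sum of 14 neuron genes was 975, 100.02, 1062 and 264 in the same order, and that of 15 rod genes was 1290, 194, 7615 and 1604. At P1 13 of the neuron genes and 12 of the rod genes were called lower in pHes1_EPCs, and at P4 6 and 15 were. A set of 19 genes of mature Müller glia summed to 728, 2550, 511 and 6148, of which P1 pHes1_EPCs had 14 and P4 pHes1_EPCs 15 called higher, with Abca8a at 0 in 2 libraries. Clu was called lower in pHes1_EPCs at P1 (3.33 against 0.997), and Mlc1 was lower there without a call (0.530 against 0.359). Genes of erythrocytes summed to 137 and 334 in the pHes1_ENCs of P1 and P4 but to 0.642 and 5.99 in the pHes1_EPCs, and microglial genes to 2.88 and 9.61 against 16.3 and 15.3. The sum of 10 endothelial genes was 63.9 and 15.5 against 213 and 195, but Kdr alone gave 46.9 and 12.01 against 209 and 189. Flt1 was also higher in pHes1_EPCs (0.066 against 0.715 at P1 and 0.110 against 1.41 at P4). Cldn5 was lower in pHes1_EPCs at P1 (16.3 against 3.49) and higher at P4 (2.59 against 4.06). Pecam1, Cdh5, Tek, Tie1, Esam, Emcn and Vwf were below an FPKM of 1 in all 4 libraries. The 12 amacrine and ganglion cell genes summed to 269 and 86.2 in pHes1_ENCs and to 27.9 and 24.0 in pHes1_EPCs. Of these, 7 were called lower in pHes1_EPCs at P1 and 4 at P4, where 3 differed in the other direction. Pou4f1, Pou4f2, Rbpms, Sncg and Thy1 had P1 differences of only -0.33 to 0.08 in log2(FPKM + 1). Slc6a9 alone gave 62.6 of the 86.2 in P4 pHes1_ENCs. In such bulk samples a smaller number of cells of a type and less RNA per cell cannot be told apart, and the part of cell content in the differences below was not tested.

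The 56 genes were all expressed, with FPKM between 0.935 and 117 and medians of 23.0 in P1 pHes1_ENCs, 18.3 in P1 pHes1_EPCs, 23.8 in P4 pHes1_ENCs and 18.6 in P4 pHes1_EPCs. Per length, Chd4 was the highest in both pHes1_ENC libraries and Hdac2 in both pHes1_EPC libraries. The lowest were Dnmt3b in both pHes1_ENC libraries, Actl6b in P1 pHes1_EPCs and Hdac4 in P4 pHes1_EPCs. The half-width of the 95% interval that Cufflinks gives with each FPKM, which covers counting error and read assignment only, had a median of 4.20% to 5.12% of the FPKM in the 4 libraries and reached 35.6% for Actl6b in P1 pHes1_EPCs.

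**Figure D1:**
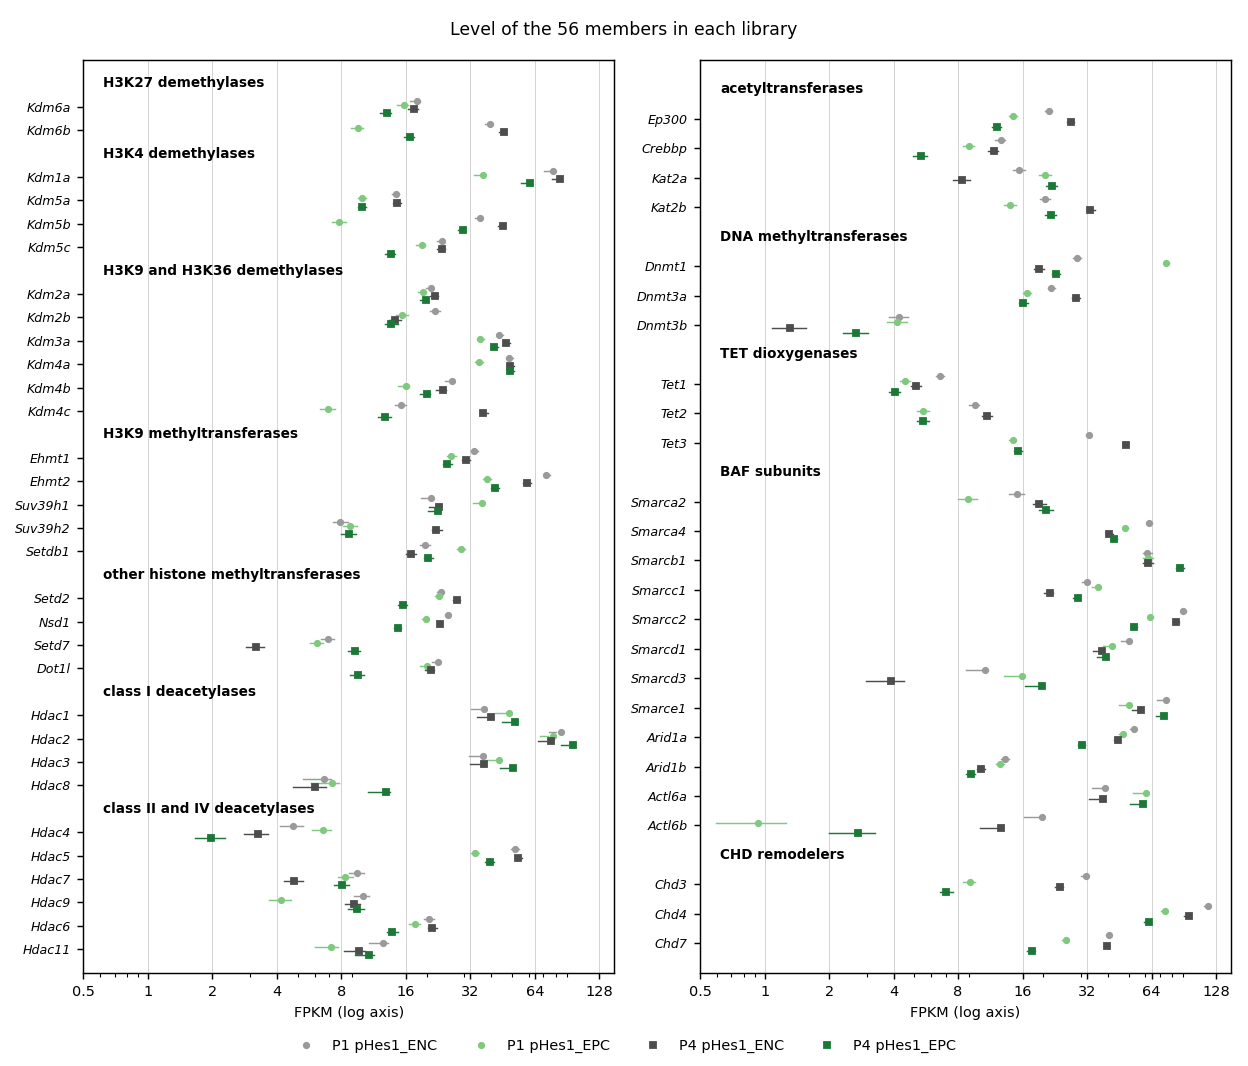
FPKM of each of the 56 genes (log axis) in the 4 libraries, grouped by enzyme class, with the Cufflinks 95% interval as a line. Points of pHes1_EPCs (green) lie left of those of pHes1_ENCs (grey) for most demethylases, TET genes and CHD genes, and Actl6b in P1 pHes1_EPCs is the lowest point at 0.935.

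Most of these genes were lower in pHes1_EPCs. The difference used throughout is taken on the log2(FPKM + 1) scale as pHes1_EPCs minus pHes1_ENCs, and a gene is called past 1 or -1. At P1 the difference was below 0 for 43 of 56 genes and above 0 for 13, with a median of -0.33 against 0.02 over 12941 expressed genes, those that reached an FPKM of 1 in any library. At P4 it was below 0 for 35 and above 0 for 21, with a median of -0.27 against 0.15. Rescaling the libraries to the same total, by median-of-ratios or by quantiles shifted the P4 median of the expressed genes by -0.24, -0.17 and -0.19, and the median of the 56 genes then stood at -0.53, -0.45 and -0.44, still below that of the expressed genes.

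Fewer genes passed the threshold. At P1, 1 gene was called higher in pHes1_EPCs, Dnmt1, against 10.3% of the expressed genes, and 8 were called lower, Kdm6b, Kdm1a, Kdm5b, Kdm4c, Hdac9, Tet3, Actl6b and Chd3, against 11.5%. At P4, 3 were called higher, Setd7, Kat2a and Smarcd3, against 16.6%, and 10 were called lower, Kdm6b, Kdm4c, Suv39h2, Dot1l, Ep300, Crebbp, Tet3, Actl6b, Chd3 and Chd7, against 9.15%. As shares of the 56 genes these are 1.79% higher and 14.3% lower at P1, and 5.36% higher and 17.9% lower at P4. The same 5 genes, Kdm6b, Kdm4c, Tet3, Actl6b and Chd3, were lower at both ages, 17 genes were called at an age and 39 at neither. Of the 12941 expressed genes, 707 were called lower at both ages, 4404 were called at an age and 8537 at neither. The P1 and P4 comparisons share no library.

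**Figure D2:**
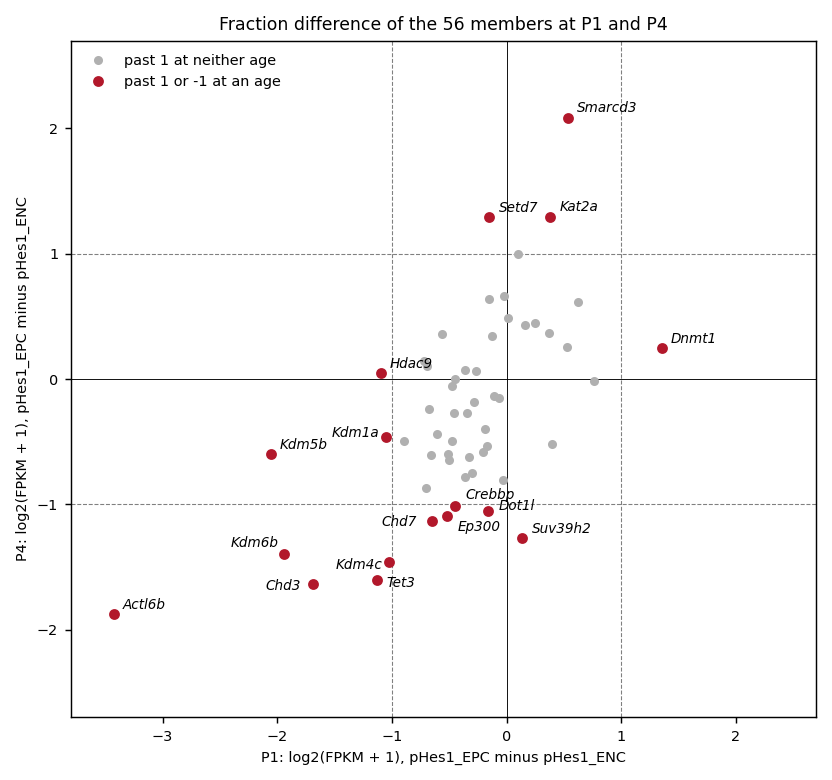
Difference in log2(FPKM + 1), pHes1_EPC minus pHes1_ENC, at P1 (horizontal axis) and P4 (vertical axis) for the 56 genes, with dashed lines at 1 and -1 and the 17 genes called at an age in red. Kdm6b, Kdm4c, Tet3, Actl6b and Chd3 lie past -1 on both axes and no gene lies past 1 on both.

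By the second rule, Cufflinks intervals that do not overlap, 10 genes were higher and 37 lower at P1, where 34.9% and 32.7% of the expressed genes were, and 15 were higher and 33 lower at P4, where 44.3% and 29.2% were. Both ages placed 28 genes lower and 8 higher. The 8 were Setdb1, Hdac1, Hdac3, Kat2a, Dnmt1, Smarcc1, Smarcd3 and Actl6a. Of these, Setdb1 and Dnmt1 had P4 differences that fell below 0 when libraries were rescaled to the same total. Of the 12941 expressed genes, both ages placed 2746 lower and 3620 higher. These intervals hold no variation between animals or sorts.

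Transcript length moved with the fraction difference and these genes are long. Their longest coding transcripts had a median of 5020.5 bases against 3057 for the expressed genes, and 45 of the 56 lay above the latter. With the expressed genes split into 4 equal groups by length, the shortest group had a median difference of 0.14 for P1 and 0.47 for P4, and the longest, which held 35 of the 56 genes, of -0.11 and -0.14. These 35 had medians of -0.45 and -0.50, and the 8 in the second shortest group had medians of 0.17 and 0.41. After the running median over genes of similar length was subtracted, the median of the 56 genes was -0.21 at P1 and -0.16 at P4. Among the 3654 expressed genes with a length between the quartiles of the 56, 14.2% were called lower and 10.3% higher at P1, and 11.3% lower and 14.6% higher at P4. How length and the sorted fractions are linked was not tested.

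**Figure D3:**
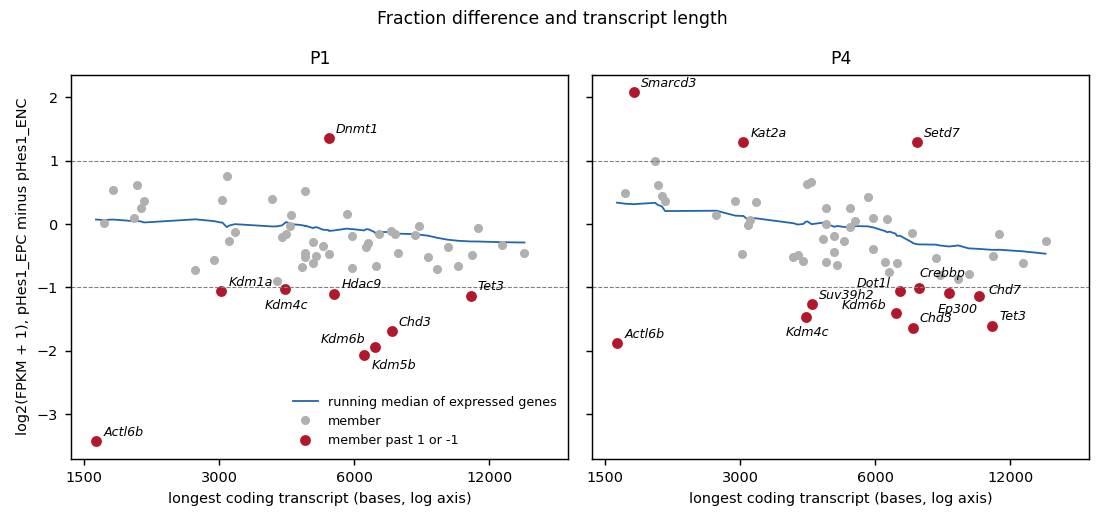
Difference in log2(FPKM + 1), pHes1_EPC minus pHes1_ENC, against the longest coding transcript (bases, log axis) for the 56 genes at P1 (left) and P4 (right). The line is the running median over expressed genes of similar length, which falls from left to right more steeply at P4. Tet3, Chd7, Ep300 and Crebbp are the longest of the called genes. Tet1, Nsd1, Arid1b and Kdm5a are longer still and were called at neither age.

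The BAF complex held the largest difference. Actl6b, which encodes the actin-related subunit of the neuronal BAF complex (mm9 chr5:137994783-138010801), was listed at 19.8 in P1 pHes1_ENCs, 0.935 in P1 pHes1_EPCs, 12.6 in P4 pHes1_ENCs and 2.72 in P4 pHes1_EPCs. It was 21.1-fold lower in pHes1_EPCs at P1, with a range of 12.9 to 33.7 from the intervals, and 4.65-fold lower at P4 (3.08 to 6.49). Its paralog Actl6a, the subunit of dividing cells (chr3:32607468-32625893), was listed at 39.0, 60.6, 37.8 and 58.4 in the same order, which is 1.55-fold higher in pHes1_EPCs at P1 (1.38 to 1.74) and 1.54-fold higher at P4 (1.38 to 1.73). Both pHes1_EPC libraries were above both pHes1_ENC libraries for Actl6a and below both for Actl6b. The exons of Actl6a share 16.2% of their bases with Mrpl47 on the opposite strand, and those of Actl6b share none. The neuron genes differed between the fractions in the same direction as Actl6b, and their part in its difference was not tested.

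As a share of the summed FPKM of the pair, Actl6b made up 33.6% in P1 pHes1_ENCs, 1.52% in P1 pHes1_EPCs, 25.05% in P4 pHes1_ENCs and 4.45% in P4 pHes1_EPCs. A share within a library does not change with its scaling. The order of the fractions was the same at both ages, and the intervals of pHes1_EPCs and pHes1_ENCs did not overlap.

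Smarcd3, an accessory subunit of the BAF complex (chr5:24098440-24107820), was listed at 10.7 in P1 pHes1_ENCs, 15.9 in P1 pHes1_EPCs, 3.87 in P4 pHes1_ENCs and 19.6 in P4 pHes1_EPCs. It was 1.49-fold higher in pHes1_EPCs at P1 (1.19 to 1.85) and 5.08-fold higher at P4 (3.64 to 6.72), the largest difference above 0 among the 56 genes. Its paralog Smarcd1 (chr15:99532718-99544426) was listed at 50.3, 41.6, 37.5 and 39.3, so that Smarcd1 made up 82.4% of the pair in P1 pHes1_ENCs, 72.3% in P1 pHes1_EPCs, 90.6% in P4 pHes1_ENCs and 66.7% in P4 pHes1_EPCs. The annotated exons of Smarcd3 share 2466 of their 4545 bases (54.3%) with Chpf2 on the opposite strand. The longest coding transcript of Smarcd3 has 1735 bases, so part of the shared bases lies outside that transcript. The library preparation as described does not mark the strand, so reads of the shared part cannot be told apart. Chpf2, named after its values were seen, was listed at 9.09, 8.19, 7.95 and 8.01, a fraction difference of -0.14 at P1 and 0.01 at P4.

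**Figure D4:**
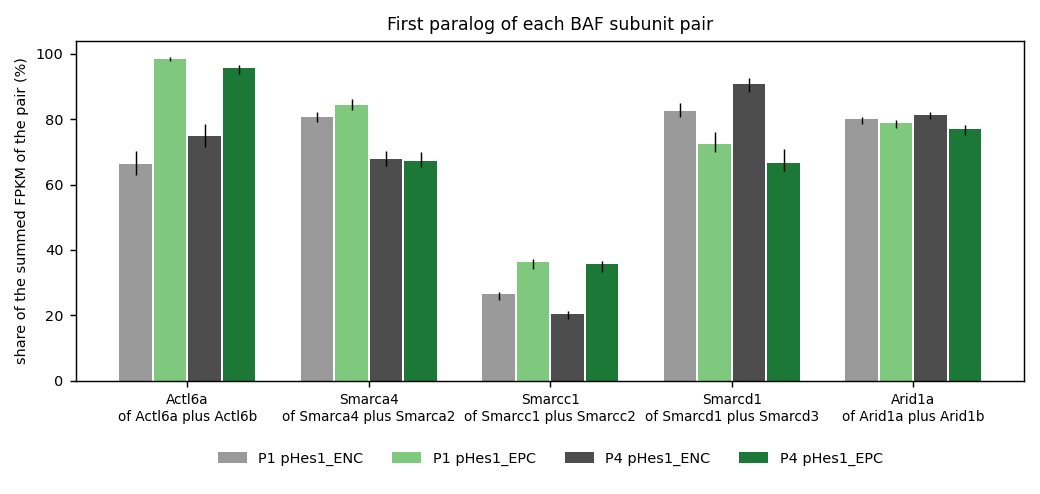
Bars give the share of the first paralog in the summed FPKM of 5 BAF subunit pairs (percent) in the 4 libraries, with error lines for the range given by the Cufflinks intervals. Actl6a takes 98.5% and 95.6% in pHes1_EPCs against 66.4% and 74.95% in pHes1_ENCs, and the Smarcd1 share runs the other way.

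The sequences upstream of these 4 genes are shown because in both pairs 1 paralog differed far more than the other between fractions at P4. At P1 this held for Actl6b, while Smarcd3 and Smarcd1 differed by 0.53 and -0.27. Each run gives the 250 bases before the annotated start, from RefSeq on GRCm38.p6, read 5′ to 3′ on the strand of the gene. Capitals mark CCAAT and GGGCGG on either strand, the letters bound by NF-Y and Sp1.
Actl6a, chr3:32708296-32708545, plus strand: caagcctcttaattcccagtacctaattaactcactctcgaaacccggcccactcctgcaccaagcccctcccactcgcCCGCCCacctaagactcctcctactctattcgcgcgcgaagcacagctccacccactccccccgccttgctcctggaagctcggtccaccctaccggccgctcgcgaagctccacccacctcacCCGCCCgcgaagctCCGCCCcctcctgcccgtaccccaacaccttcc
Actl6b, chr5:137553296-137553545, plus strand: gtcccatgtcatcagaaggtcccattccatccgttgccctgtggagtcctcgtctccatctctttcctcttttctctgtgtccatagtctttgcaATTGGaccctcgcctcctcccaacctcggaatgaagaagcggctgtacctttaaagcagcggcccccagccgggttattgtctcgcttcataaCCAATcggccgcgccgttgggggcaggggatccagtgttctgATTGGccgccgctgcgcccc
Smarcd1, chr15:99702037-99702286, plus strand: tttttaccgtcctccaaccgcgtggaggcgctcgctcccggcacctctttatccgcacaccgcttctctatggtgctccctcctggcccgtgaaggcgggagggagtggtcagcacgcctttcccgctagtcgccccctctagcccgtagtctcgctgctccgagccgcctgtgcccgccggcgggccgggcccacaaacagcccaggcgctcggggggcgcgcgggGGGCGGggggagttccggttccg
Smarcd3, chr5:24602003-24602252, minus strand: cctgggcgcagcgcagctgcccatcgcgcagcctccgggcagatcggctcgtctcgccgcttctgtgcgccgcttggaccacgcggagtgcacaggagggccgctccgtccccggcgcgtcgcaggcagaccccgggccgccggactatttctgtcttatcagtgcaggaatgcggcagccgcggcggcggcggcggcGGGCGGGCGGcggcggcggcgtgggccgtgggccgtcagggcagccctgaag
The Actl6b window held CCAAT 3 times and GGGCGG nowhere, whereas the Actl6a window held GGGCGG 3 times and CCAAT nowhere. The Smarcd3 window held GGGCGG at 2 overlapping places and the Smarcd1 window at 1, neither with CCAAT. Over all 32851 windows of 250 bases, 33.8% held CCAAT and 32.7% held GGGCGG. Of the 56 genes, 46 were matched to 65 windows, of which 29.2% held CCAAT and 67.7% held GGGCGG. The CpG count was 19 for Actl6a, 15 for Actl6b, 29 for Smarcd1 and 38 for Smarcd3, with medians of 20 over the 65 windows and 6 over all windows. A match of letters is a description and not a bound site. Kdm6b, Kdm5a, Kdm2a, Kdm4b, Nsd1, Hdac1, Hdac3, Smarce1, Chd3 and Chd7 had no entry in the table used here.

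Smarca4 and Smarca2 encode the alternative ATPases of the complex. Smarca4 was listed at 62.2 in P1 pHes1_ENCs, 48.1 in P1 pHes1_EPCs, 40.4 in P4 pHes1_ENCs and 42.6 in P4 pHes1_EPCs, and Smarca2 at 15.0, 8.93, 19.2 and 20.7. The Smarca4 share was 80.5% and 84.3% in the 2 libraries of P1 and 67.8% and 67.4% in those of P4, so it differed by age more than by fraction. The scaffold subunits Smarcc1 (32.1, 35.99, 21.4 and 29.2) and Smarcc2 (89.5, 62.9, 83.2 and 52.8) gave a Smarcc1 share of 26.4% and 20.5% in pHes1_ENCs and of 36.4% and 35.6% in pHes1_EPCs of P1 and P4. Arid1a (52.8, 46.9, 44.5 and 30.4) and Arid1b (13.3, 12.6, 10.3 and 9.15), the large DNA-binding subunits, gave an Arid1a share between 76.9% and 81.3% in all 4 libraries.

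Smarce1 and Smarcb1 are core subunits with no paralog. Smarce1 was listed at 74.6 in P1 pHes1_ENCs, 50.1 in P1 pHes1_EPCs, 57.2 in P4 pHes1_ENCs and 73.5 in P4 pHes1_EPCs, which is 1.49-fold lower in pHes1_EPCs at P1 (1.38 to 1.61) and 1.29-fold higher at P4 (1.19 to 1.39). Smarcb1 was listed between 61.1 and 61.6 in 3 libraries and at 86.7 in P4 pHes1_EPCs. The FPKM of Smarce1, Actl6a, Hdac1, Hdac2 and Hdac3 lay outside their own Cufflinks interval in all 4 libraries, and those of Kdm1a, Chd4 and Smarcd1 in 3, 2 and 1 libraries, so the ranges of these 8 genes are less certain than their width shows. Over the 12 subunits the median difference was -0.22 at P1 and 0.09 at P4, and at P4 it fell below 0 under each of the 3 rescalings (-0.19, -0.11 and -0.06).

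Subunits outside the list followed the neuronal and progenitor sets only in part. Of 4 further subunits of the neuronal complex, Dpf3 was called lower at both ages (7.45, 0.818, 4.03 and 1.41, differences of -2.22 and -1.07), Ss18l1 at P1 (10.7, 2.57, 8.12 and 4.32, -1.72 and -0.78), and Dpf1 (-0.88 and 0.65) and Bcl7a (-0.50 and 0.00) at neither. Of the 4 progenitor counterparts, none was called, with differences of 0.42 and 0.21 for Phf10, -0.01 and 0.28 for Dpf2, 0.47 and 0.80 for Ss18, and 0.23 and 0.41 for Bcl7c. None of 8 other BAF or PBAF subunits was called at either age, with medians of -0.19 and -0.39.

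CHD proteins are ATP-driven remodelers, and Chd3 and Chd4 are the alternative motor subunits of the NuRD deacetylase complex. Chd3 (chr11:69156775-69182928) was listed at 31.5 in P1 pHes1_ENCs, 9.08 in P1 pHes1_EPCs, 24.1 in P4 pHes1_ENCs and 7.06 in P4 pHes1_EPCs. It was 3.47-fold lower in pHes1_EPCs at P1 (3.13 to 3.81) and 3.41-fold lower at P4 (3.01 to 3.77), nearly the same at both ages. Chd4 was far higher and differed less, with 117, 74.0, 95.3 and 62.2, that is 1.59-fold lower (1.52 to 1.66) and 1.53-fold lower (1.46 to 1.61). Chd7, which acts at enhancers, was listed at 40.6, 25.4, 39.8 and 17.7, 1.60-fold lower at P1 (1.49 to 1.69) and 2.25-fold lower at P4 (2.098 to 2.397). With the length median subtracted, its P4 difference of -1.13 became -0.74 and no longer passed the threshold, whereas Chd3 kept -1.56 and -1.34.

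Chd3 lies 29.1 kb from Kdm6b on chromosome 11, with 3 other gene lines between them, and both were called lower in pHes1_EPCs at both ages. Of 19 other remodelers found, 3 were lower at P1 (Smarca1, Chd5 and Cecr2) and none higher, and at P4 2 were lower (Baz2a and Cecr2) and 1 was higher (Baz1a), those called at 1 age being named after their values were seen. Cecr2 was the only one called at both ages, with 17.0, 6.73, 26.4 and 9.98.

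Demethylases remove methyl groups from histone lysines. Kdm6b removes the repressive methylation of H3K27 that Polycomb sets (chr11:69212020-69227177), and it was listed at 39.5 in P1 pHes1_ENCs, 9.56 in P1 pHes1_EPCs, 45.8 in P4 pHes1_ENCs and 16.7 in P4 pHes1_EPCs. It was 4.13-fold lower in pHes1_EPCs at P1 (3.73 to 4.53) and 2.74-fold lower at P4 (2.49 to 2.97). The X-linked Kdm6a, an enzyme for the same mark, was listed at 18.0, 15.6, 17.5 and 13.1, so it was 1.15-fold lower (1.02 to 1.28) and 1.34-fold lower (1.19 to 1.50). Kdm6a made up 31.3% and 27.7% of the pair in pHes1_ENCs and 62.1% and 43.9% in pHes1_EPCs.

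The 4 demethylases of H3K4, a mark of active promoters, were lower in pHes1_EPCs at both ages, with intervals that did not overlap. Kdm5b (chr1:136456755-136529455) was listed at 35.6 in P1 pHes1_ENCs, 7.79 in P1 pHes1_EPCs, 45.5 in P4 pHes1_ENCs and 29.7 in P4 pHes1_EPCs. It was 4.57-fold lower at P1 (4.04 to 5.04) but 1.53-fold lower at P4 (1.42 to 1.65), and in pHes1_EPCs it was 3.81-fold higher at P4 than at P1 (3.36 to 4.21). Kdm1a, which also works in CoREST complexes that silence neuronal genes in other cells, was listed at 77.4, 36.7, 84.0 and 60.6, or 2.11-fold lower (1.92 to 2.29) and 1.39-fold lower (1.28 to 1.50). Kdm5a and Kdm5c passed the threshold at neither age, with differences between -0.30 and -0.75.

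Of the 6 demethylases of H3K9 and H3K36, Kdm4c was called (chr4:73888401-74051768). It was listed at 15.1 in P1 pHes1_ENCs, 6.93 in P1 pHes1_EPCs, 36.8 in P4 pHes1_ENCs and 12.7 in P4 pHes1_EPCs. It was 2.18-fold lower in pHes1_EPCs at P1 (1.89 to 2.52) and 2.89-fold lower at P4 (2.61 to 3.24), and it was higher at P4 than at P1 in both fractions, 2.43-fold in pHes1_ENCs (2.21 to 2.71) and 1.84-fold in pHes1_EPCs (1.59 to 2.14). The other 5, Kdm2a, Kdm2b, Kdm3a, Kdm4a and Kdm4b, differed by -0.11 to -0.68 at P1 and by 0.00 to -0.24 at P4. Each of the 3 demethylase classes had a median below 0 at both ages under every rescaling tried.

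Histone methyltransferases were more mixed. Suv39h1 and Suv39h2 set the H3K9 methylation of constitutive heterochromatin. Suv39h1 was listed at 20.9 in P1 pHes1_ENCs, 36.2 in P1 pHes1_EPCs, 23.0 in P4 pHes1_ENCs and 22.7 in P4 pHes1_EPCs, high in 1 library and level in the other 3. Suv39h2 (chr2:3373087-3392258) was listed at 7.92, 8.81, 22.2 and 8.65, high only in P4 pHes1_ENCs, where it was 2.57-fold above pHes1_EPCs (2.27 to 2.94) and 2.81-fold above P1 pHes1_ENCs (2.47 to 3.22). The exons of Suv39h2 share 9.98% of their bases with genes on the opposite strand, and those of Suv39h1 share 11.3%. The Suv39h1 share of the pair was 72.5% in P1 pHes1_ENCs, 80.5% in P1 pHes1_EPCs, 50.8% in P4 pHes1_ENCs and 72.4% in P4 pHes1_EPCs. Ehmt1 and Ehmt2, which form the euchromatic H3K9 enzyme, were lower at both ages (-0.34 and -0.27, -0.90 and -0.49), and Setdb1 was higher (0.52 and 0.26). The P4 difference of Setdb1 fell below 0 when libraries were rescaled to the same total.

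Setd7, a lysine methyltransferase of H3K4 and of other proteins (chr3:51319240-51364745), was listed at 6.92 in P1 pHes1_ENCs, 6.13 in P1 pHes1_EPCs, 3.19 in P4 pHes1_ENCs and 9.24 in P4 pHes1_EPCs. It was 2.90-fold higher in pHes1_EPCs at P4 (2.48 to 3.39), while the P1 intervals overlapped. Its long transcript lies where the length median was -0.32 at P4, and quantile normalization took it below the threshold. Dot1l, the H3K79 enzyme, was listed at 22.5, 19.99, 21.0 and 9.56, low in P4 pHes1_EPCs and level in the other 3 libraries, and 2.19-fold lower there (1.91 to 2.47). With the length median subtracted Dot1l was at -0.87. Setd2 and Nsd1, enzymes of H3K36, passed the threshold at neither age (-0.03 and -0.80, -0.32 and -0.62).

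Of 26 further histone methyltransferases and demethylases found, 2 were called lower at P1 and none higher, and 7 lower and 1 higher at P4, with medians of -0.18 and -0.44. Kdm7a, a demethylase of H3K9 and H3K27 that the files list under its older symbol, was the only one called at both ages, with 16.5, 3.37, 16.3 and 7.64 and differences of -2.003 and -1.001. Kmt5b at P1 (-1.01) and Smyd2 at P4 (1.40) are named after their values were seen.

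Deacetylases remove acetyl groups and are found mostly in repressive complexes, and class I holds the enzymes common to all cells. Hdac1 was listed at 37.2 in P1 pHes1_ENCs, 48.3 in P1 pHes1_EPCs, 40.0 in P4 pHes1_ENCs and 51.9 in P4 pHes1_EPCs, 1.30-fold higher in pHes1_EPCs at P1 (1.15 to 1.45), and as much so at P4 (1.16 to 1.45). Hdac2 was listed at 85.1, 77.7, 76.0 and 96.8, 1.10-fold lower at P1 (1.01 to 1.19) and 1.27-fold higher at P4 (1.17 to 1.38). Hdac8 nearly reached the threshold at P4, at 0.995 with 6.01 against 12.98, and passed it with a pseudocount of 0.1. The class I median was 0.17 at P1 and 0.41 at P4, where the expressed genes had 0.02 and 0.15, and stayed above 0 under every rescaling tried. Under the same total it was 0.12 at P4, where the expressed genes had -0.09. With the length median subtracted, the class I median was 0.13 at P1 and 0.21 at P4.

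The class II and IV deacetylases shuttle between nucleus and cytoplasm or act on other proteins. Their median FPKM was below that of class I in all 4 libraries, and they were less uniform. Hdac5 was above Hdac1 and Hdac3 in pHes1_ENCs (51.8 at P1 and 53.7 at P4) and below them in pHes1_EPCs (33.6 and 39.4). Hdac9 was listed at 10.04 in P1 pHes1_ENCs, 4.16 in P1 pHes1_EPCs, 9.17 in P4 pHes1_ENCs and 9.50 in P4 pHes1_EPCs. It was low in P1 pHes1_EPCs alone, 2.41-fold below pHes1_ENCs (1.97 to 2.92), and it lay at -0.997 once the length median was subtracted. Hdac4 was listed at 4.73, 6.55, 3.26 and 1.98, 1.38-fold higher in pHes1_EPCs at P1 (1.10 to 1.72) and 1.65-fold lower at P4 (1.23 to 2.20). Hdac5, Hdac6, Hdac7 and Hdac11 passed the threshold at neither age, with differences of -0.72 to 0.64.

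Acetyltransferases deposit the marks of active enhancers and promoters. Ep300, a general coactivator, was listed at 21.3 in P1 pHes1_ENCs, 14.5 in P1 pHes1_EPCs, 26.99 in P4 pHes1_ENCs and 12.1 in P4 pHes1_EPCs, 1.47-fold lower at P1 (1.35 to 1.59) and 2.23-fold lower at P4 (2.03 to 2.42). Its paralog Crebbp was listed at 12.7, 9.0, 11.8 and 5.35, 1.41-fold lower (1.25 to 1.58) and 2.21-fold lower (1.93 to 2.50). Ep300 took 62.7% of the pair in P1 pHes1_ENCs, 61.7% in P1 pHes1_EPCs, 69.6% in P4 pHes1_ENCs and 69.4% in P4 pHes1_EPCs, so the fractions differed little within an age. With the length median subtracted, the P4 differences were -0.74 for Ep300 and -0.69 for Crebbp, short of the threshold.

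Kat2a and Kat2b are alternative acetyltransferases of the SAGA and related complexes. Kat2a (chr11:100566060-100573781) was listed at 15.4 in P1 pHes1_ENCs, 20.4 in P1 pHes1_EPCs, 8.33 in P4 pHes1_ENCs and 21.9 in P4 pHes1_EPCs, 1.32-fold higher at P1 (1.16 to 1.50) and 2.63-fold higher at P4 (2.27 to 3.07). Kat2b was lower in pHes1_EPCs at both ages, with 20.4, 14.0, 33.2 and 21.6 and ratios of 1.46-fold (1.30 to 1.64) and 1.53-fold (1.40 to 1.70). Kat2a made up 43.1% and 20.1% of the pair in pHes1_ENCs of P1 and P4 and 59.3% and 50.3% in pHes1_EPCs.

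Of 24 further acetyltransferases, deacetylases and corepressor subunits, 1 was higher and 1 lower at P1 (Hat1 at 1.68 and Rcor2 at -1.16), and 1 was higher at P4 (Mta3 at 1.98), with medians of -0.11 and -0.49. None was called at both ages, and these names were chosen after the values were seen. Rcor2 and Kdm1a, which act in 1 complex, were both lower in P1 pHes1_EPCs. Of the other Rcor genes, Rcor1 was at 0.34 and Rcor3 at -0.02 at P1, and Rcor2 itself was at -0.26 at P4.

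Dnmt1, the maintenance DNA methyltransferase (chr9:20711650-20764332), was listed at 28.6 in P1 pHes1_ENCs, 74.6 in P1 pHes1_EPCs, 19.1 in P4 pHes1_ENCs and 22.9 in P4 pHes1_EPCs. It was 2.60-fold higher in pHes1_EPCs at P1 (2.43 to 2.80) and 1.20-fold higher at P4 (1.09 to 1.32), the latter falling below 0 when libraries were rescaled to the same total. From P1 to P4 it was 3.26-fold lower in pHes1_EPCs (3.04 to 3.53) and 1.50-fold lower in pHes1_ENCs (1.37 to 1.65). The fraction difference of the S phase genes had a median of 2.18 for P1 and 2.13 for P4, where Dnmt1 was at 1.35 and 0.25. Of these 20 genes 17 were called lower at P4 than at P1 in pHes1_EPCs (median -1.43) and 13 in pHes1_ENCs (median -1.28). The part of dividing cells in the Dnmt1 difference was not tested.

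Dnmt3a and Dnmt3b set new methylation. Dnmt3a was listed at 21.8, 16.7, 28.4 and 16.1, or 1.30-fold lower in pHes1_EPCs at P1 (1.19 to 1.42) and 1.77-fold lower at P4 (1.62 to 1.92). Dnmt3b was listed at 4.23, 4.15, 1.32 and 2.67, and in pHes1_ENCs it was 3.21-fold lower at P4 than at P1 (2.43 to 4.33). Dnmt3a took 80.1% to 95.6% of the pair, the most in P4 pHes1_ENCs.

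The TET enzymes, which start the removal of DNA methylation, were lower in pHes1_EPCs at both ages. Tet3 (chr6:83312368-83391672), the highest of them, was listed at 32.6 in P1 pHes1_ENCs, 14.4 in P1 pHes1_EPCs, 48.6 in P4 pHes1_ENCs and 15.3 in P4 pHes1_EPCs, 2.27-fold lower at P1 (2.11 to 2.41) and 3.18-fold lower at P4 (2.96 to 3.37). With the length median subtracted Tet3 was at -0.85 at P1 and -1.20 at P4. Tet2 followed at -0.70 and -0.87 and Tet1 at -0.46 and -0.27, and the Tet1 difference at P4 was above the length median by 0.19.

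Of 13 further DNA methylation genes, 3 were called higher at P1 (Uhrf1, Hells and Mbd4) and 2 at P4 (Uhrf1 and Hells), and 1 was called lower at P4 (Zbtb4), with Mbd4 and Zbtb4 named after their values were seen. Uhrf1, which brings Dnmt1 to newly copied DNA, was listed at 17.6, 113, 1.32 and 29.7, differences of 2.62 and 3.73. Hells, a remodeler needed for DNA methylation, was listed at 6.61, 37.0, 1.32 and 11.6, differences of 2.32 and 2.43. Over all 98 further chromatin genes found of 100 listed, 4 were higher (4.08%) and 8 lower (8.16%) at P1, where 10.3% and 11.5% of the expressed genes were. At P4 5 were higher (5.10%) and 14 lower (14.3%), where 16.6% and 9.15% were, and the medians were -0.13 at P1 and -0.33 at P4.

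Fewer genes were called by age within a fraction than between the fractions. Age differences use the same 4 libraries as the fraction comparisons. In pHes1_EPCs, 3 of the 56 genes were called higher at P4 than at P1, Kdm5b, Hdac9 and Smarca2, where 7.04% of the expressed genes were, and 2 were called lower, Dnmt1 and Hdac4, where 4.33% were. In pHes1_ENCs, 2 were called higher, Kdm4c and Suv39h2 (background 4.67%), and 2 lower, Dnmt3b and Smarcd3 (background 10.0%). The medians were -0.04 in pHes1_EPCs and -0.10 in pHes1_ENCs, against 0.17 and -0.01 over the expressed genes. Hdac9 and Smarca2, at 1.03 and 1.13 in pHes1_EPCs, fell short of the threshold when libraries were rescaled to the same total or by median-of-ratios, which left 1 higher and 3 lower with Dot1l.

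No gene was called by age in both fractions. Smarca2 was 2.31-fold higher at P4 in pHes1_EPCs (1.94 to 2.77) and 1.28-fold in pHes1_ENCs (1.10 to 1.48). Smarcd3 was 2.77-fold lower at P4 in pHes1_ENCs (1.95 to 3.73) and 1.23-fold higher in pHes1_EPCs (1.01 to 1.51). Hdac4 was 3.31-fold lower at P4 in pHes1_EPCs (2.54 to 4.32) and 1.45-fold lower in pHes1_ENCs (1.15 to 1.88). Whether any of these age differences differed between the fractions could not be tested with 1 library each.

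**Figure D5:**
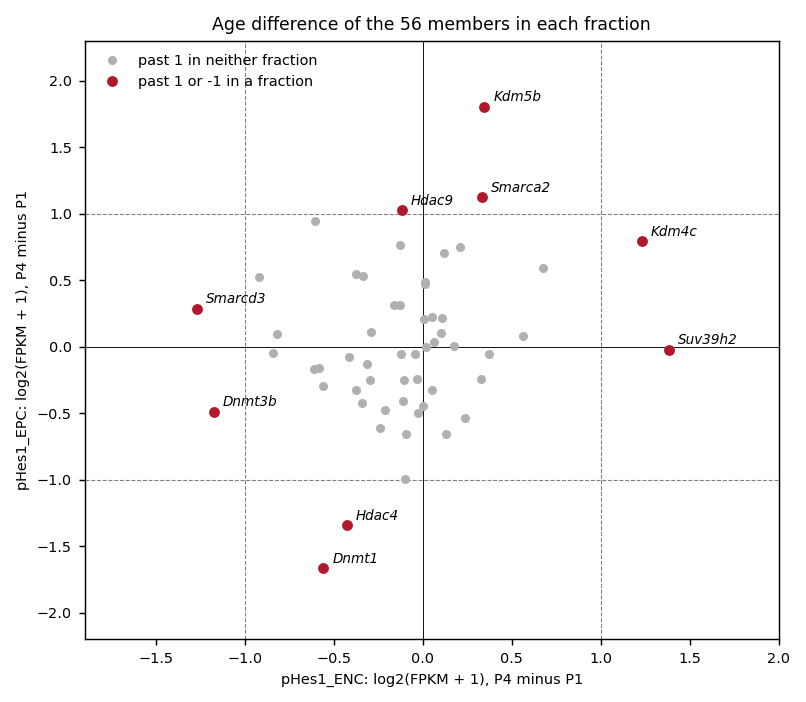
Difference in log2(FPKM + 1), P4 minus P1, in pHes1_ENCs (horizontal axis) and pHes1_EPCs (vertical axis) for the 56 genes, with dashed lines at 1 and -1. The 9 named genes pass a line in 1 fraction each, with Kdm5b at 1.805 and Dnmt1 at -1.66 in pHes1_EPCs and Suv39h2 at 1.38 and Smarcd3 at -1.27 in pHes1_ENCs.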

How the data were processed

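RNA of sorted retinal cells was copied with random primers and sequenced as 36-base single-end reads, with no step that marks the strand. Per the study's methods and processing notes, the authors used bcl2fastq 1.8.4, aligned reads to mm9 with TopHat2 2.0.8b, allowing up to 50 positions a read, and computed FPKM with Cufflinks 2.1.1. The deposited tables give FPKM and a 95% interval per gene for each of 4 libraries. Read totals are not given in the sources used here, so depth is unknown. The labels give FVB/N, whereas the methods name ICR mice as the animals bought.

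Of 23021 gene lines, 787 of small RNAs were left out, and repeated symbols were represented by their highest line, which gave 21828 genes. Differences are on the log2(FPKM + 1) scale, which understates the change of low genes. A fold is a ratio of FPKM, its range set by dividing the lower bound of one library by the upper bound of the other, and the reverse. The second call rule asks for intervals that do not overlap. No count test, p-value or SD could be given with 1 library a group. All 56 genes had 1 line each and status OK in every library.

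The genes and the lists were chosen with earlier results of these data known. Values in all 4 libraries were given for genes called in any comparison or placed in opposite directions at P1 and P4, and for BAF paralog pairs. Genes of other lists were named when called at both ages, as were all progenitor and neuronal BAF subunits. Setd1b and Srcap were not analysed here. Part of the calls of a further list is not reported here. Alternatives were a pseudocount of 0.1 or none, a minimum FPKM of 1, rescaling to the same total, median-of-ratios, quantiles, summed lines, status OK, centring, and subtraction of a running median over 501 genes by the longest coding transcript of GENCODE M1. The backgrounds matched on length or expression, the paralog pairs outside BAF and the median without BAF and CHD genes were added after seeing the data. Promoter windows are from RefSeq (GRCm38.p6), and their coordinates are not those of mm9. Python 3.11.15, numpy 2.4.6, pandas 2.3.3 and matplotlib 3.10.9 were used.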

Additional observations from a re-analysis of the deposited data

Results flagged for a closer look

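The 3 genes Smarce1, Hdac4 and Hdac2 were placed in opposite directions by the fractions of P1 and P4, with intervals that did not overlap at either age. By the same rule 736 of the 12941 expressed genes were placed so, a share much like that of 3 in 56. The difference in log2(FPKM + 1) between pHes1_EPCs and pHes1_ENCs moved from -0.57 at P1 to 0.36 at P4 for Smarce1, a change of 0.92. For Hdac4 it moved from 0.40 to -0.52, a change of -0.91, at FPKM between 1.98 and 6.55. For Hdac2 it moved from -0.13 to 0.35, a change of 0.48. With 1 library a group, these differences between the ages were not tested. The FPKM of Smarce1 and Hdac2 lay outside their own intervals in all 4 libraries.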

How the results depend on the processing

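No paired analysis was possible because each group has 1 library and the labels give no replicate numbers, and for the same reason no library could be left out. In the comparison in which a gene was called, its direction did not reverse under any alternative run, nor did that of a median over the 56 genes. Differences that were not called did change sign, in 8 genes at P4 under the same total, Dnmt1 and Hdac9 among them, and in 12 genes by age in pHes1_EPCs. At P4 the median over the 56 genes, -0.27, was -0.53 after rescaling to the same total, -0.45 by median-of-ratios, -0.44 by quantiles and -0.43 after centring on the expressed genes. The P4 count of genes lower in pHes1_EPCs fell from 10 to 6 once the length median was subtracted, with Dot1l, Ep300, Crebbp and Chd7 lost, and the count of genes higher rose from 3 to 5 with no pseudocount, with Hdac8 and Dnmt3b gained. Subtracting the length median also lost 2 of the 9 genes called at P1, Hdac9 and Tet3, so Tet3 was then called lower at P4 only. By intervals, 9 rather than 15 genes were higher at P4 after rescaling to the same total. In pHes1_EPCs the count of genes higher at P4 than at P1 fell from 3 to 1 under the same total, median-of-ratios and centring, where the median of -0.04 became -0.33, -0.19 and -0.21. In pHes1_ENCs the count of genes lower at P4 fell from 2 to 1 by quantiles, where Dnmt3b was lost. The other 174 summary values moved by less than the limits set for them. Of the values of single genes under the alternatives, 409 stayed and 81 moved. The 41 genes without BAF subunits and CHD proteins, an alternative chosen after seeing the data, had medians of -0.32 at P1 and -0.40 at P4. Variation between animals and sorts is not measured.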

Other observations

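Paralog pairs of enzymes outside the BAF complex, chosen after seeing the data, differed in how far their shares moved with the fraction. Hdac1 made up 30.4% of the summed FPKM of Hdac1 and Hdac2 in P1 pHes1_ENCs, 38.3% in P1 pHes1_EPCs, 34.5% in P4 pHes1_ENCs and 34.9% in P4 pHes1_EPCs. Ehmt1 made up 31.5%, 40.4%, 34.1% and 37.6% of its pair with Ehmt2. Suv39h1 and Hdac6 lie 113 kb apart on the X chromosome and Setd2 and Smarcc1 292 kb apart on chromosome 9, and within neither pair were both genes called in a comparison.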
